A study of Drosophila melanogaster
Drosophila virilis with 26 samples.

Results

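The comparison described here is between SMART-seq2 libraries tagmented in a 5x smaller volume and SMART-seq2 libraries tagmented in a 2.5x smaller volume, read over the D. melanogaster genes alone. It takes 10 of the 26 libraries of the series, 5 at the 5x dilution and 5 at the 2.5x dilution, and 13802 of the 28133 gene names in the full-depth table, those without the D. virilis prefix. The members were chosen by the library labels and the gene prefix and not by a measured value. The study asked whether low-input RNA-seq protocols keep differences in RNA abundance in proportion, and whether the costly tagmentation reagent can be stretched without a loss of quality. All libraries came from total RNA of pooled whole embryos of Drosophila aged 0 to 4 h, of which 1 ng was used per mixture, with 0, 1, 5, 10 or 20% D. virilis RNA and the remainder from D. melanogaster. Both dilutions shared the same 5 cDNA samples, 1 per mixture, amplified for 18 cycles. They then received separate tagmentation reactions with proportionally less cDNA, 8 cycles of enrichment and a place in 1 sequencing lane. The libraries of a dilution are therefore different mixtures prepared once each. They are not separate collections of embryos, and the p-values below measure technical spread only.

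In SMART-seq2, polyadenylated RNA is reverse transcribed from an oligo(dT) primer, the reverse transcriptase switches to a template oligonucleotide at the end of the transcript, and the full-length cDNA is amplified by PCR. Tagmentation then cuts this cDNA and adds adapters in a single step with a Tn5 transposase loaded with the adapter ends, so the balance of enzyme to cDNA sets how the molecules are cut. The early Drosophila embryo carries a large store of maternal mRNA, including determinants such as bcd, osk and nos, and starts to transcribe its patterning genes around cellularization.

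The libraries held 11215999 to 19011285 reads on D. melanogaster genes at the 5x dilution (median 14625284) and 12467391 to 16967107 at the 2.5x dilution (median 13389557). The largest gap in depth within a mixture was at 10%, with 11215999 reads in the 5x library and 16638175 in the 2.5x library. Levels are given as counts per 1000000 reads on D. melanogaster genes (CPM), always in the order 0, 1, 5, 10 and 20% D. virilis. Since reads were not divided by transcript length, levels are compared between libraries and not between genes. Of the 10 early embryo markers fixed for the check, 9 were found among the gene names and had reads. The other, zld, was not found under that name. Over the 10 libraries osk, the organizer of the germ plasm, received 271719 reads, nos 37896, vas 35774 and bcd 32260. The zygotic markers were low, with 342 reads for eve, 400 for ftz, 630 for sna, 226 for twi and 816 for nullo. None of the markers of follicle cells, yolk protein, testis, eye, accessory gland, larva or muscle passed the filter on low counts, and the largest total among them was 44 reads, for the muscle gene Mlc2.

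Levels of D. melanogaster genes in the 5x libraries followed those of the 2.5x libraries closely. With the mixture as a block, edgeR's quasi-likelihood test found 0 of the 6565 genes tested (0%) different at an adjusted p of 0.05. At an unadjusted p of 0.05 it marked 124 genes (1.89%), 66 higher at 5x (1.01%) and 58 lower (0.883%). Without any difference, a test at this threshold would on average mark a share of about 0.05, so it marked fewer genes than that. DESeq2 also called 0 genes after adjustment and 41 at the unadjusted threshold, and limma-voom called 0 and 121. The median log2 fold change of 5x over 2.5x was 0.0015 with an SD of 0.082 over the genes, of which 3367 lay above 0 and 3198 below. A p that misses the threshold does not show equality, so the 95% interval of each fold change was used. The whole interval lay within 1.25-fold for 5824 genes (88.7%), within 1.5-fold for 6246 (95.1%) and within 2-fold for 6510 (99.2%). The 55 genes whose interval reached past 2-fold had a median of 12 reads per library and at most 38.8.

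**Figure D1:**
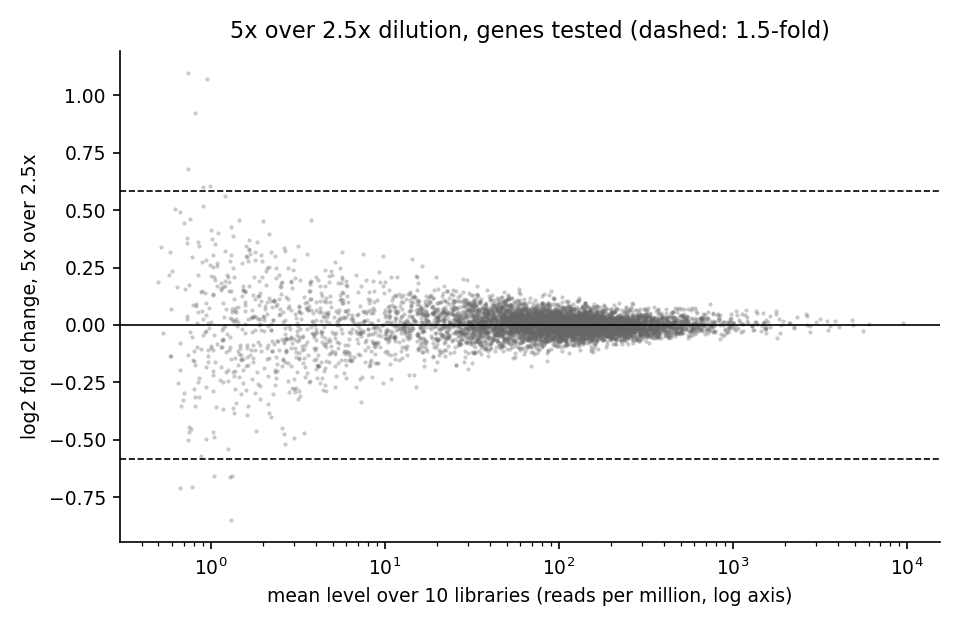
Log2 fold change of 5x over 2.5x (vertical axis) against the mean level over the 10 libraries in CPM (horizontal log axis) for the 6565 D. melanogaster genes tested, 1 point per gene, with dashed lines at 1.5-fold. The points narrow toward 0 as the level rises, and the extremes of 1.10 and −0.85 both lie near 1 CPM.

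The transcripts that took the most reads were those of housekeeping and maternal regulatory genes, and none differed between the dilutions by more than its error. Ef1alpha48D, the translation elongation factor that brings aminoacyl-tRNA to the ribosome, had 13197, 10928, 8129, 9785 and 5294 CPM at 5x, against 12473, 10635, 7887, 10199 and 5519 CPM at 2.5x. Its level differed more than 2-fold between the 0 and 20% mixtures in each dilution, while the 5x and 2.5x libraries of a mixture stayed together. The log2 fold change was 0.0089 ± 0.031 (SE), with a 95% interval of −0.058 to 0.076. Hsp83, the Hsp90 chaperone, had 5123, 5218, 5967, 5204 and 5910 CPM at 5x, against 5442, 5243, 6313, 5136 and 5854 CPM at 2.5x. The ranges of the dilutions overlapped and the log2 fold change was −0.029 ± 0.029. The RNA helicase me31B, which represses maternal mRNAs, had 4839, 4772, 5413, 4237 and 5045 CPM at 5x, against 4543, 4424, 5148, 4579 and 5208 CPM at 2.5x. It was higher at 5x in 3 pairs and lower in 2, with a log2 fold change of 0.023 ± 0.036. The germline thioredoxin dhd averaged 6049 ± 743 CPM at 5x and 6031 ± 745 CPM at 2.5x, the glycolytic enzyme Gapdh2 4851 ± 759 and 4876 ± 989 CPM, and the constitutive chaperone Hsc70-4 4043 ± 866 and 4078 ± 934 CPM (SD, n = 5 each). These SDs include the differences between mixtures, which the pairing removes, so they do not measure the error of a difference between dilutions. In the paired fit the log2 fold changes of these 3 genes were 0.0038 ± 0.045, 0.0013 ± 0.033 and −0.0095 ± 0.030 (SE).

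**Figure D2:**
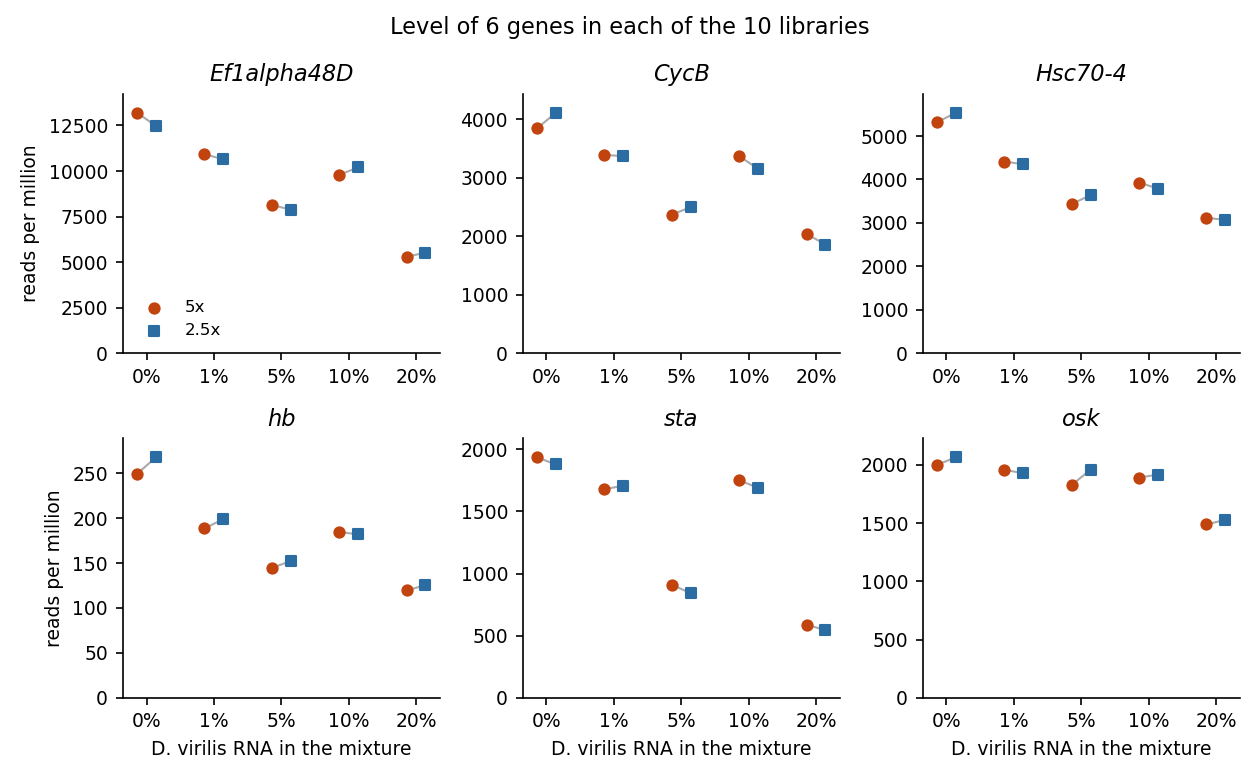
Level in CPM (vertical axes, from 0) of 6 genes in the 5x libraries (circles) and the 2.5x libraries (squares), joined by a line within each D. virilis mixture (horizontal axes). Both dilutions follow the same course over the mixtures, as for sta with 1936 CPM at 5x and 1878 CPM at 2.5x in the 0% mixture, and 589 CPM at 5x and 545 CPM at 2.5x in the 20% mixture.

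The genes of smallest p in each direction were examined because none passed the adjusted threshold. All of those chosen had 1 direction in all 5 pairs, which was not a condition of the choice. In all, 308 of the 6565 genes tested (4.69%) had 1 direction in all 5 pairs. With random and independent signs a gene would do so with a probability of 0.0625, so a shared direction alone does not mark a gene. The smallest p belonged to crb, the transmembrane determinant of the apical epithelial surface. It had 73.0, 70.8, 79.8, 50.1 and 49.3 CPM at 5x, against 84.6, 78.4, 91.4, 61.4 and 51.3 CPM at 2.5x. Each 5x library was below its partner although the ranges overlapped, and the log2 fold change was −0.18 ± 0.047 with edgeR's p at 0.00202 and an adjusted p of 0.997. In the sampled counts its log2 fold change was −0.39 with an adjusted p of 0.744, the lowest of any named gene under any alternative. CG8301 had a log2 fold change of −0.19 ± 0.061 and CG34126 one of −0.16 ± 0.050. The lowest value, −0.85 ± 0.27, belonged to xmas-1, which had only 26, 14, 19, 5 and 4 reads at 5x and 25, 21, 46, 24 and 4 reads at 2.5x.

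Among the genes above 0, wnd, a mixed-lineage kinase known for its part in axon responses, had 15.4, 18.5, 15.9, 19.8 and 19.7 CPM at 5x, against 12.3, 16.9, 14.8, 16.0 and 14.6 CPM at 2.5x. Its log2 fold change was 0.26 ± 0.079, and the difference held in all 5 pairs without passing the adjusted threshold (adjusted p = 0.997, edgeR). GstE12, a glutathione S-transferase, had 81.6, 75.2, 45.1, 72.0 and 33.9 CPM at 5x, against 72.9, 68.5, 40.2, 67.7 and 29.8 CPM at 2.5x. Its log2 fold change was 0.15 ± 0.046. The level of GstE12 had an SD over the mixtures of 20.8 CPM at 5x and 19.5 CPM at 2.5x, a spread that the pairing removes. Rack1, a scaffold protein of the ribosome, had a log2 fold change of 0.090 ± 0.030. The highest value, 1.10 ± 0.33, belonged to nvd, an oxygenase of ecdysteroid synthesis, with 18, 7, 15, 26 and 1 reads at 5x and 10, 2, 5, 18 and 0 reads at 2.5x. All of these genes had an adjusted p of 0.997 from edgeR.

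The maternal patterning genes showed no call in either direction. Of the maternal axis and germ plasm list, 26 of 29 genes were tested, 12 lay above 0 and 14 below, and the median log2 fold change was −0.0064, beside 0.0015 over all genes tested. In this list osk had 2000, 1958, 1827, 1890 and 1488 CPM at 5x, against 2064, 1926, 1958, 1916 and 1528 CPM at 2.5x. It was lower at 5x in 4 of 5 pairs, with a log2 fold change of −0.036 ± 0.029 and a 95% interval of −0.098 to 0.026. The CPEB-type translational regulator orb stood at −0.065 ± 0.032, and cact, the inhibitor of Dorsal, at 0.041 ± 0.031. The maternal mRNA regulators gave 6 of 13 above 0 and 7 below, with a median of −0.0015. Among them the repressor smg, which drives maternal mRNA decay, had 1873, 1601, 1442, 1550 and 1124 CPM at 5x, against 1919, 1674, 1462, 1598 and 1135 CPM at 2.5x. It was lower at 5x in all 5 pairs, by a log2 fold change of −0.035 ± 0.027. The poly(A)-binding protein gene Pabp2 stood at 0.062 ± 0.038 and tral, a partner of me31B, at −0.0015 ± 0.035.

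The zygotic patterning genes were measured far less well. Of the gap genes, 7 of 10 were tested, with 2 above 0, 5 below and a median of −0.061. The best covered of them was hb, which is also supplied maternally. It had 249, 188, 144, 185 and 120 CPM at 5x, against 268, 199, 152, 182 and 125 CPM at 2.5x. It was lower at 5x in 4 of 5 pairs, at −0.061 ± 0.033. Kr, expressed in the central embryo, had 2.97, 1.79, 2.39, 1.87 and 8.0 CPM at 5x, against 2.49, 2.24, 1.79, 3.67 and 7.59 CPM at 2.5x. The 20% libraries of both dilutions were the highest for Kr, and the fold change was −0.086 ± 0.19. Of the pair-rule genes, 7 of 9 were tested, with 3 above 0, 4 below and a median of −0.022. The zinc-finger gene opa had the largest log2 fold change among them, 0.92 ± 0.30, from 3, 28, 0, 20 and 27 reads at 5x and 2, 10, 0, 18 and 13 reads at 2.5x. Its p was 0.0102 before and 0.997 after adjustment by edgeR. The runt-domain gene run stood at −0.099 ± 0.21 and the homeobox gene ftz at −0.16 ± 0.18.

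Of the segment polarity genes, 12 of 19 were tested, with 7 above 0, 5 below and a median of 0.0095. The beta-catenin gene arm had 556, 532, 578, 529 and 487 CPM at 5x, against 599, 526, 615, 535 and 515 CPM at 2.5x, a log2 fold change of −0.055 ± 0.030. Its partner pan, the TCF transcription factor of Wnt signaling, had 13.9, 19.3, 34.9, 22.5 and 15.1 CPM at 5x, against 11.95, 17.9, 26.9, 20.1 and 13.5 CPM at 2.5x. It was higher at 5x in all 5 pairs, at 0.21 ± 0.073 with an adjusted p of 0.997 from edgeR. Of the zygotic dorsoventral genes, 11 of 18 were tested, with 6 above 0, 5 below and a median of 0.024. The BMP ligand dpp stood at −0.46 ± 0.21, with 7, 31, 15, 16 and 43 reads at 5x and 6, 27, 29, 35 and 57 reads at 2.5x. The second BMP ligand, scw, had more reads and stood at −0.0041 ± 0.11. None of the 8 Hox genes passed the filter on low counts. The one with the most reads, abd-A, had 3, 25, 3, 0 and 5 reads at 5x and 1, 12, 1, 4 and 5 reads at 2.5x. The 95% interval stayed within 1.5-fold for 4 of 7 gap genes, 4 of 7 pair-rule genes, 10 of 12 segment polarity genes and 6 of 11 zygotic dorsoventral genes, beside 26 of 26 maternal axis and germ plasm genes.

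Of the lists of cell machinery that follow, the interval stayed within 1.5-fold for all tested genes of the cellularization, cell cycle, histone and proteasome lists, for 9 of 12 tubulin and actin genes and for 15 of 16 chaperone genes. All 10 cellularization genes were tested, with 7 above 0, 3 below and a median of 0.0087. The septin pnut had 373, 327, 325, 342 and 363 CPM at 5x, against 389, 336, 326, 339 and 376 CPM at 2.5x, a log2 fold change of −0.029 ± 0.029. Of the cell cycle genes 16 of 16 were tested, with 6 above 0, 10 below and a median of −0.011. The mitotic cyclin CycB averaged 3003 ± 761 CPM at 5x and 2996 ± 859 CPM at 2.5x (SD, n = 5 each). The Cdc25 phosphatase twe was lower at 5x in all 5 pairs, at −0.046 ± 0.030, and the checkpoint kinase mei-41 stood at −0.12 ± 0.064. The histone genes tested were the 4 replacement variants His2Av, His3.3A, His3.3B and His4r of 115 names in the table, and all 4 lay above 0 with a median of 0.031. The H3.3 gene His3.3B had 1116, 1163, 1056, 1335 and 641 CPM at 5x, against 1087, 1135, 991, 1314 and 633 CPM at 2.5x. It was higher at 5x in all 5 pairs, by 0.041 ± 0.028. The small ribosomal subunit gene sta, the only cytoplasmic ribosomal protein gene analysed, stood at 0.059 ± 0.030.

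Of the proteasome genes 32 of 47 were tested, with 23 above 0, 9 below and a median of 0.018, and 0 were called. The core particle subunit Prosbeta3 had 523, 542, 477, 583 and 438.5 CPM at 5x, against 479, 536, 426, 565 and 437.9 CPM at 2.5x. It was higher at 5x in all 5 pairs, at 0.071 ± 0.032, and it was the only proteasome gene past the unadjusted threshold (adjusted p = 0.997, edgeR). Rpn2, the large scaffold of the regulatory particle, stood at −0.0024 ± 0.031. Of the tubulin and actin genes 12 of 16 were tested, with 9 above 0, 3 below and a median of 0.011. The cytoplasmic actin Act5C averaged 3604 ± 358 CPM at 5x and 3606 ± 233 CPM at 2.5x, and betaTub56D 3853 ± 291 and 3806 ± 295 CPM (SD, n = 5 each). Of the chaperone genes 16 of 19 were tested, with 7 above 0, 9 below and a median of −0.0093. The small heat shock gene Hsp23 was lower at 5x in 4 of 5 pairs, at −0.098 ± 0.051. Every list had 0 genes called by edgeR, as did the whole table.

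The spread between the dilutions was set beside that between mixtures. Over the 6140 genes with a mean of at least 50 reads, the log2 ratio of 5x over 2.5x had an SD of 0.138, 0.112, 0.168, 0.153 and 0.145 in the 5 mixtures (mean 0.143). Poisson counting alone gives an SD of 0.0890, 0.0752, 0.0908, 0.0891 and 0.0972 for these ratios. The 1% pair was the closest and the 5% pair the farthest apart. The variation left after counting error corresponded to a coefficient of variation of 4.09% in the 1% pair and 6.91% in the 5% pair, with 5.15, 6.13 and 5.28% in the 0, 10 and 20% pairs. Between 94.0 and 98.1% of these genes were within 1.25-fold of their partner, and 15 genes differed over 2-fold in any pair. Libraries of 1 dilution but different mixtures, each from its own amplified cDNA, had an SD of 0.290 to 0.543 at 5x and 0.305 to 0.546 at 2.5x. The smallest of these was larger than the largest SD within a mixture. The correlation of log2 levels over these genes, which share their libraries and depth, was 0.995 to 0.998 within a mixture and 0.949 to 0.984 between mixtures.

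**Figure D3:**
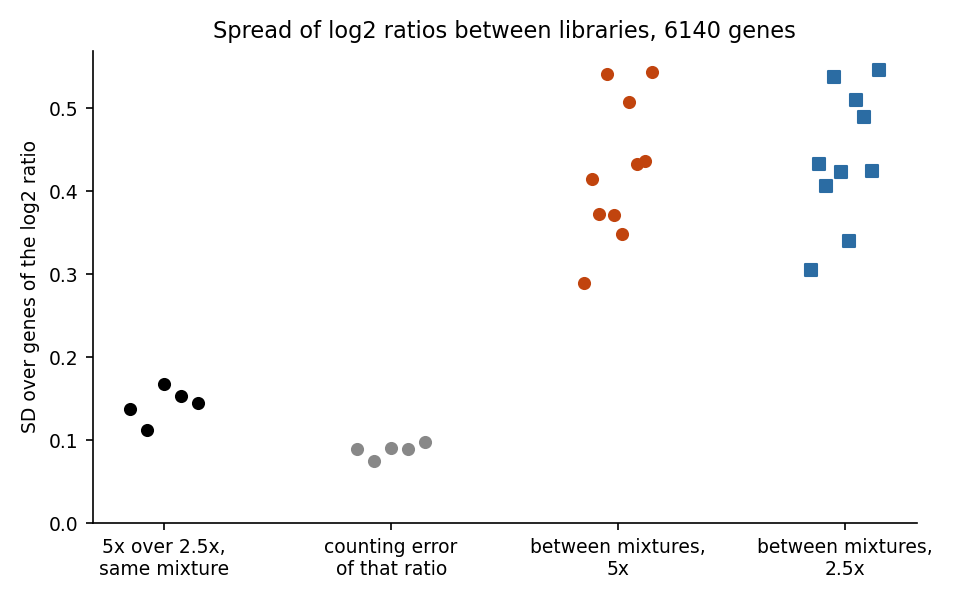
SD over 6140 genes of the log2 ratio between 2 libraries (vertical axis, from 0). From left to right the points are the 5 pairs of 5x over 2.5x within a mixture, the SD that counting alone gives for them, the 10 pairs of mixtures at 5x and the 10 pairs of mixtures at 2.5x, and every within-mixture value (0.112 to 0.168) lies below every between-mixture value (0.290 to 0.546).

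The spread of the fold changes shrank with abundance and their centre stayed near 0. In 5 classes of 1228 genes, ordered by level, the median log2 fold change was 0.0071, 0.0097, 0.0017, −0.0030 and −0.0025 with an SD of 0.089, 0.049, 0.042, 0.036 and 0.030. In the lowest class the median by pair was 0.043, −0.015, 0.060, −0.046 and −0.023 for the 0, 1, 5, 10 and 20% mixtures, so its sign was not the same in every mixture.

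The number of D. melanogaster genes with at least 1 read was 7339, 7347, 7243, 7302 and 7109 at 5x, against 7320, 7347, 7227, 7395 and 7110 at 2.5x. The mean difference of −11.8 genes was below the spread over the pairs (SD 46.3, n = 5, exact permutation test over the pairs, two-sided p = 0.875). It rested on the 10% pair, where the 5x library was the shallower. Without that pair the difference was 8.5 genes. In the table that the authors sampled to equal alignments it was 5.4 genes (exact p = 0.3125), and with a minimum of 10 reads at full depth it was 2.4 (exact p = 1). With 5 pairs this test cannot go below 0.0625. In all, 6525 genes were seen in all 10 libraries, 8645 in at least 1 and 5157 in none. No gene had reads in all 5 libraries of 1 dilution and none in the other. The genes seen in only 1 library of a pair numbered 133 to 168 for 5x and 134 to 232 for 2.5x per mixture, and none of them had more than 18 reads.

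Outside the genes, 11.96 ± 1.65% of the alignments at 5x and 12.33 ± 2.63% at 2.5x belonged to reads without a unique place (SD, n = 5 each). Wilson 95% intervals of this share reached at most 0.0162 percentage points to either side, which covers counting error only. Shares outside annotated genes were 7.99 ± 1.35% at 5x and 8.03 ± 1.80% at 2.5x, and ambiguous ones 2.24 ± 0.204% and 2.23 ± 0.189%. For these 3 shares the exact permutation test over the pairs gave two-sided p = 0.6875, 0.9375 and 0.4375. Each p of this test was 0.9375 after Benjamini-Hochberg adjustment over the 3. With 5 pairs its p cannot go below 0.0625, which is above the threshold used for the genes. The test therefore could not have called a difference in these shares, and its outcome does not show that they were equal. For reads without a unique place the difference was 0.960, −0.559, 1.85, −1.51 and −2.59 percentage points in the 0, 1, 5, 10 and 20% mixtures, and its mean of −0.371 changed sign to 0.184 without the 20% pair. For alignments outside genes it was 0.453, −0.302, 0.657, −0.242 and −0.739, and its mean of −0.0346 changed sign without the 1, 10 or 20% pair, to 0.0323, 0.0172 and 0.141. Neither difference shared a sign over the mixtures.

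A set of genes moved together between the dilutions, upward at 5x in some mixtures and downward in others. Over the 5111 genes with a mean of at least 500 reads, the log2 ratios of the 0% pair correlated with those of the 5% pair (r = 0.558), and those of the 10% pair with those of the 20% pair (r = 0.461). Across these 2 blocks the correlations were negative, from −0.333 to −0.451, and those with the 1% pair ran from −0.155 to 0.088. The pairs share no library, but all genes of a pair share its 2 libraries and their depth, so these values are descriptions. The first principal component of the 5 ratios held 51.2% of their sum of squares, with weights of 0.49, 0.010, 0.61, −0.46 and −0.41. The component thus took both signs over the mixtures, unlike a difference common to the 5 pairs.

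The genes and families that follow were chosen after their ratios had been seen, so their common direction is a description and carries no test. The 20 leading genes at one end of the component, most of them known only by a CG number, included Rpb12, a subunit shared by the nuclear RNA polymerases, Ucrh, the hinge protein of respiratory complex III, CoVIII of cytochrome c oxidase, SmG of the spliceosomal Sm ring, pen-2 of gamma-secretase and the mitochondrial fission gene Fis1. Rpb12 had 56.3, 59.5, 67.9, 67.2 and 55.5 CPM at 5x, against 38.2, 61.9, 43.8, 93.3 and 71.0 CPM at 2.5x. The 5x libraries thus spanned a narrower range, and the 2.5x library was the lower of its pair at 0 and 5% and the higher at 1, 10 and 20%. Ucrh had 205, 192, 210, 205 and 127 CPM at 5x, against 159, 204, 147, 261 and 157 CPM at 2.5x. SmG had 123, 107, 88.5, 115 and 48.8 CPM at 5x, against 87.5, 113, 61.0, 132 and 54.1 CPM at 2.5x. These genes took the same side of each pair as Rpb12. The 20 leading genes at this end had median log2 ratios of 0.37, −0.086, 0.55, −0.31 and −0.31, with 20 of 20 above 0 at 0 and 5% and 20 of 20 below 0 at 10 and 20%.

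The 20 leading genes at the other end included lva, a golgin needed for cellularization, bsf, an RNA-binding protein of bicoid mRNA, the exoribonuclease pcm, the gamma-tubulin complex gene Grip163, the vacuolar sorting gene dor and the kinase Pkc98E. The golgin gene lva had 66.5, 64.5, 48.8, 58.7 and 64.2 CPM at 5x, against 79.3, 67.7, 51.5, 47.7 and 55.2 CPM at 2.5x. Here the 5x library was the lower of its pair at 0, 1 and 5% and the higher at 10 and 20%. The 20 leading genes at this end had median log2 ratios of −0.16, −0.0017, −0.22, 0.29 and 0.13, with 0 of 20 above 0 at 0 and 5%, 20 of 20 above 0 at 10% and 19 of 20 above 0 at 20%.

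**Figure D4:**
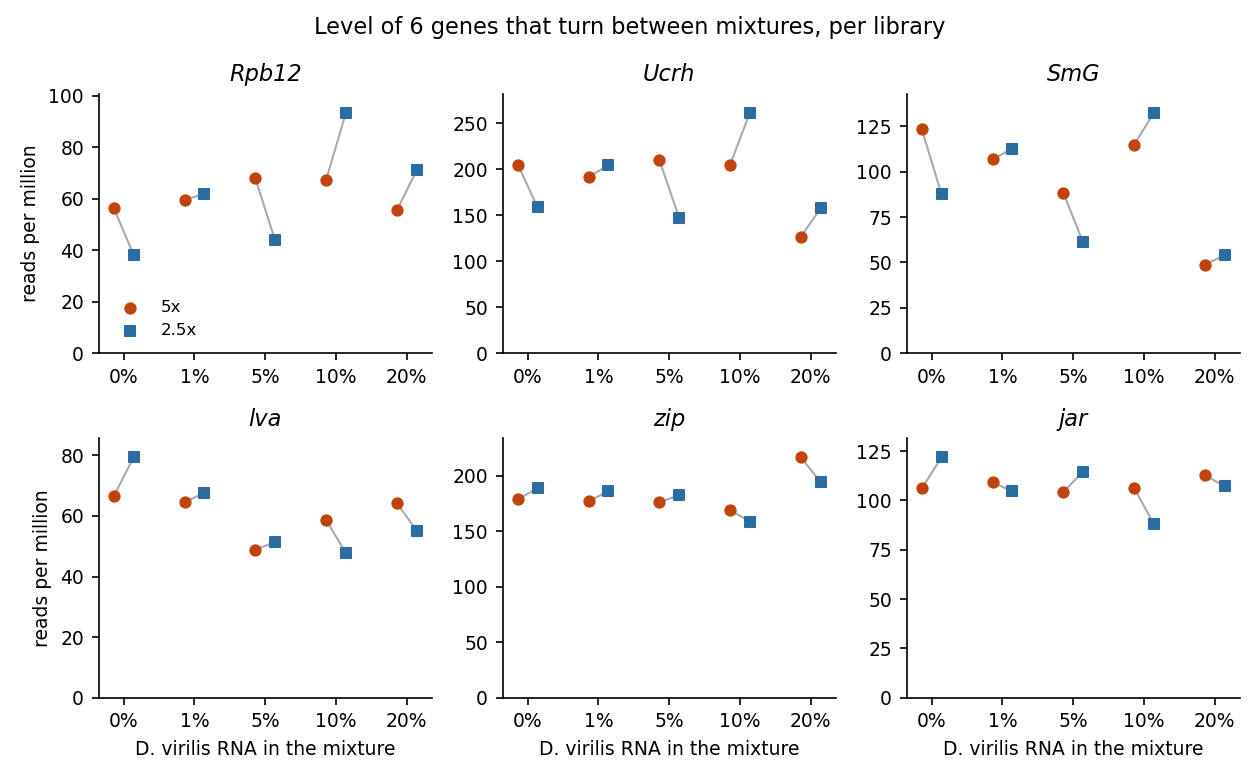
Level in CPM (vertical axes, from 0) of Rpb12, Ucrh and SmG (top) and of lva, zip and jar (bottom) in the 5x libraries (circles) and the 2.5x libraries (squares), joined within each D. virilis mixture (horizontal axes). The top genes are higher at 5x in the 0 and 5% mixtures and lower at 5x in the 10 and 20% mixtures, and the bottom genes lie the other way round in those mixtures.

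Families to which Rpb12, Ucrh and SmG belong were then described. Over all genes tested the median log2 ratio was 0.00097, −0.00028, −0.0059, −0.0062 and 0.0047 in the 5 mixtures. The Sm and LSm genes encode the ring proteins of spliceosomal and decay complexes. For the 10 tested of 11, the median log2 ratio was 0.25, −0.12, 0.44, −0.13 and −0.11 over the mixtures. At 5% 10 of 10 were above 0, from 0.070 for SmB to 0.59 for LSm3, and at 1% 10 of 10 were below. The summed Sm and LSm level was 987, 970, 921, 1146 and 782 CPM at 5x, against 860, 1057, 712, 1214 and 817 CPM at 2.5x. At 10 and 20% 2 and 3 of 10 were above 0. The RNA polymerase list was drawn up as small subunits (Rpb4, Rpb5, Rpb7, Rpb8, Rpb10, Rpb11 and Rpb12), of which 6 of 7 were tested. The medians were 0.15, −0.059, 0.33, −0.19 and −0.023, with 6, 1, 6, 1 and 2 of 6 above 0. For 28 respiratory chain genes they were 0.16, −0.089, 0.29, −0.066 and −0.073, with 23, 7, 24, 10 and 9 of 28 above 0. For 7 tested of 14 mitochondrial import genes they were 0.098, −0.041, 0.20, −0.11 and −0.041, with 6, 3, 7, 3 and 2 of 7 above 0. The turn was thus less uniform at 10 and 20% than at 0 and 5% in these families. Over the 5 pairs together, 10 of 10 Sm and LSm genes and 6 of 6 RNA polymerase subunits had a log2 fold change above 0. The same held for 23 of 28 respiratory chain genes and 5 of 7 import genes, beside 3367 of all 6565 genes tested. The family medians were 0.046, 0.030, 0.024 and 0.019, and edgeR called 0 of these genes after adjustment. Of the respiratory chain genes 2 of 28 passed the unadjusted threshold, beside 124 of all 6565 genes tested (1.89%). They were ATPsyn-gamma at 0.072 ± 0.029 and ATPsyn-b at 0.067 ± 0.029, and no member of the other 3 families passed.

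Some families lay on the opposite side of most pairs. The cytoskeletal list was drawn up as large proteins, including the spectrins, dynein heavy chain, talin and the spectraplakin shot. For the 12 tested of 13, the median log2 ratio was −0.076, −0.082, −0.12, 0.17 and 0.14. At 0 and 5% 12 of 12 were below 0, and at 10 and 20% 9 and 10 of 12 were above. Their summed level was 824, 758, 750, 763 and 854 CPM at 5x, against 883, 798, 804, 697 and 804 CPM at 2.5x. The one value over 2-fold, 1.19 at 1%, belonged to Msp-300, with 259 reads over the 10 libraries. The 9 kinases and ubiquitin ligases, among them Tor, hyd and mei-41, were also listed as large proteins. Their medians were −0.079, −0.033, −0.090, −0.071 and 0.085, with 0, 3, 2, 3 and 6 of 9 above 0. This family followed the cytoskeletal genes in part of the mixtures only. Over the 5 pairs together 7 of 12 cytoskeletal genes lay above 0, with a median of 0.0057. The kinases and ubiquitin ligases lay below 0 in 9 of 9, with a median of −0.040. Of all 6565 genes tested, 3367 lay above 0 and 3198 below. No gene of either family passed the unadjusted threshold.

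Subunits of 1 complex also differed in their ratios. Myosin II joins the heavy chain zip to the regulatory light chain sqh. The heavy chain zip had log2 ratios of −0.081, −0.071, −0.054, 0.092 and 0.16, from 178, 177, 176, 169 and 216 CPM at 5x against 189, 186, 183, 159 and 194 CPM at 2.5x. The light chain sqh had log2 ratios of 0.22, −0.015, 0.19, −0.036 and −0.083, from 210, 196, 216, 210 and 200 CPM at 5x against 180, 198, 190, 215 and 212 CPM at 2.5x. The ratios of the 2 chains had opposite signs in 4 of the 5 mixtures. In the ATP synthase, the catalytic subunit ATPsyn-beta had log2 ratios of 0.0052, 0.037, −0.046, −0.046 and −0.027 and the epsilon subunit sun 0.17, −0.26, 0.51, −0.24 and −0.12. In complex II, the flavoprotein SdhA had −0.064, 0.083, −0.036, 0.039 and 0.041 and the membrane anchor SdhC 0.26, 0.058, 0.14, −0.085 and −0.26. In the outer membrane translocase, the receptor Tom70 had −0.020, 0.028, 0.026, 0.078 and −0.018 and its partner Tom7 0.25, −0.31, 0.52, −0.27 and −0.26. In these 3 complexes ATPsyn-beta, SdhA and Tom70 stayed within 0.083 of 0 in every mixture, while sun, SdhC and Tom7 each lay 0.26 or more from 0 in at least 1 mixture.

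Reads without a unique place had a larger share at 5x in the 0 and 5% mixtures and a smaller one in the others. The medians of the Sm and LSm, RNA polymerase, respiratory chain and import families had the same signs. The difference in alignments outside genes also had these signs, and that in alignments on genes of either species had the opposite ones. The shares on genes, without a unique place, outside genes and ambiguous make up all alignments. The ambiguous share differed by at most 0.041 percentage points, so the opposite sign on genes follows from the other shares and is no separate observation. The 5x library was the deeper at 0, 1, 5 and 20% and the shallower at 10%, and the part of depth in the turn was not tested. The RNA polymerase, cytoskeletal and kinase and ubiquitin ligase lists were drawn up as small or large proteins, but no protein size was measured. Transcript length and base composition were not analysed here. The lowest abundance class had medians with the signs of the Sm and LSm, RNA polymerase, respiratory chain and import families (0.043, −0.015, 0.060, −0.046 and −0.023). The highest class had the opposite signs (−0.012, 0.0026, −0.023, 0.0086 and 0.011). The part of abundance, size, length or composition in the turn between mixtures was not tested.

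**Figure D5:**
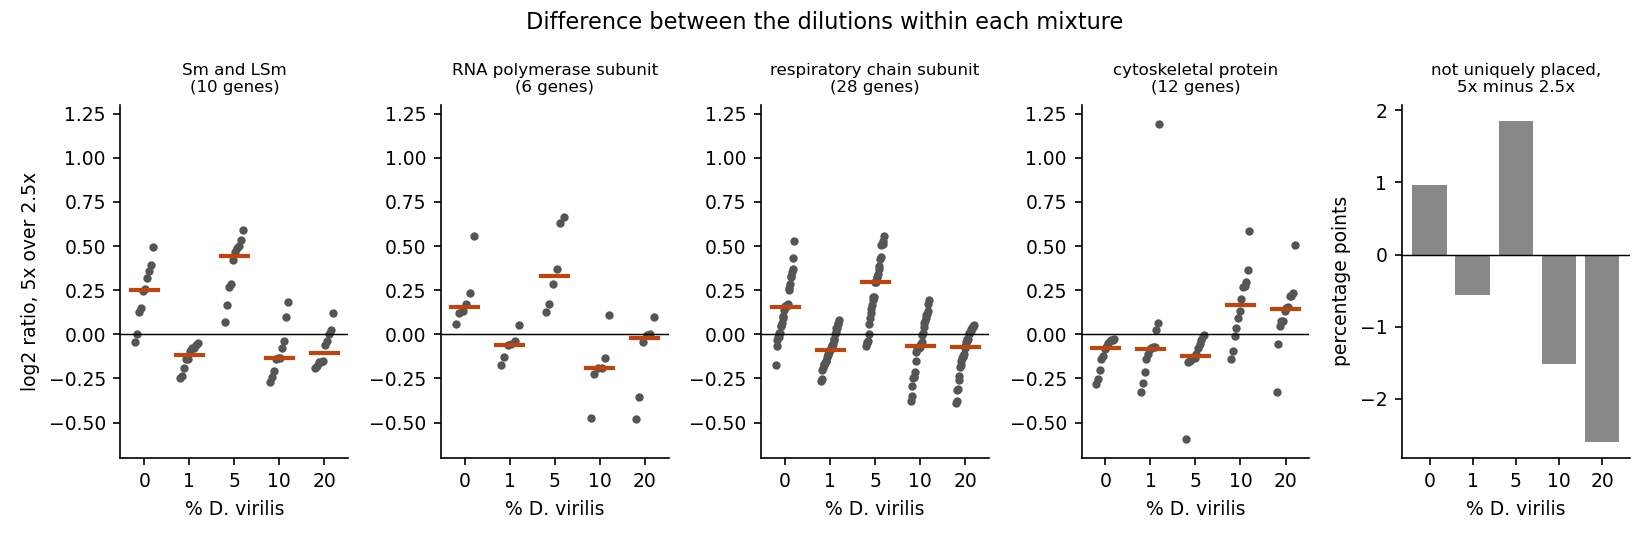
Log2 ratio of 5x over 2.5x (vertical axes of the first 4 panels) within each D. virilis mixture (horizontal axes), 1 point per gene with the family median as a bar, and in the last panel the difference in the share of reads without a unique place in percentage points. The Sm and LSm median is highest at 5% (0.44) and the cytoskeletal median lowest there (−0.12), and the read share differs most upward in the same mixture (1.85). The sizes do not go together in every mixture. The read share differs most downward at 20% (−2.59), where the Sm and LSm median is −0.11, beside −0.12 at 1% and −0.13 at 10%. The difference in alignments outside genes, not drawn, had the same sign as this share in each mixture.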

How the data were processed

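RNA-seq libraries of the 5x and 2.5x SMART-seq2 dilutions were sequenced as single-end reads of 50 bp. The authors called bases (CASAVA 1.8 in the submitters' processing notes), mapped reads with STAR to the combined D. melanogaster and D. virilis genomes of FlyBase 5.54, and used htseq-count, with strand ignored, to count reads for each gene name. They deposited these raw counts per gene, in columns that carry the label FPKM but hold whole numbers, at full depth and after random sampling to equal alignments. Reads of overlapping genes, and of a gene and its antisense partner, cannot be told apart. The number of columns not matched to a sample was 0.

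Full-depth counts of D. melanogaster genes were scaled to their own total. Genes passing filterByExpr were fitted with edgeR 4.0.16 (glmQLFit and glmQLFTest, R 4.3.3), with the mixture as a block and Benjamini-Hochberg adjustment over all genes tested at a threshold of 0.05. The standard error was the fold change divided by the square root of F, and the intervals are at 95%. Single-pair ratios used a pseudocount of 0.1 CPM. The scripts were tested on simulated data. The block rests on the shared cDNA that the study describes. Libraries of the same mixture deviated together (r from 0.841 to 0.932 over genes, against −0.533 to 0.230 for different mixtures). The deviations were taken from the mean of each dilution over its mixtures, which by itself pushes the values for different mixtures downward. Single values per library were compared by an exact permutation test over the 5 pairs with 32 sign changes. The tests and figures used Python 3.11.15 (scipy 1.17.1, pandas 2.3.3, numpy 2.4.6, matplotlib 3.10.9).

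The genes named were, by rule, up to 4 in each direction of smallest p, the 4 of smallest p and the 6 of highest level. In each list the rule added the 2 of highest level and the 2 of smallest p. Other genes named from the lists, the marker genes and the 6 families with the subunit pairs stand outside this rule, and the families and pairs were chosen after their values were seen. The members, lists and tests were chosen with earlier results of these data known. Alternatives were TMM and DESeq2 size factors, DESeq2 1.42.0, limma-voom (limma 3.58.1), no filter, a mean of at least 50 counts, no block, the sampled counts and each pair left out. The cytoplasmic ribosomal protein genes other than sta, the mitochondrial ribosomal protein genes and the mitochondrially encoded genes are not analysed here, nor are gene sequences or positions.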

Additional observations from a re-analysis of the deposited data

Results flagged for a closer look

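Of 120 groups of 5 libraries examined, for the 55 named genes with a mean of at least 10 reads and for 5 measures of each library, 3 had 1 library far from the others, by a gap to its nearest neighbour above 0.71 of the range of the group. Chance marks about 1 group in 20. All 3 involved a 20% mixture. The germ plasm gene osk was lowest in the 20% libraries, with 1488 CPM at the 5x dilution and 1528 CPM at the 2.5x dilution. The 2.5x library was the one far from its group, whose nearest other library had 1916 CPM. The gap gene Kr had 8.0 CPM in the 20% library of the 5x dilution, against 2.97 CPM in the nearest, and 7.59 CPM in the 20% library of the 2.5x dilution. The RNA granule gene tral had 2949 CPM in the 20% library of the 5x dilution, against 2636 CPM in the nearest, and 2721 CPM in the 20% library of the 2.5x dilution, where it was not the highest.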

How the results depend on the processing

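The number of genes called by edgeR was 0 under every alternative tried, with the lowest adjusted p of a named gene at 0.744, for crb in the sampled counts, where its log2 fold change was −0.39 in place of −0.18. Genes at an unadjusted p of 0.05, 124 of 6565 at first (1.89%), numbered 122 with TMM and 125 with DESeq2 size factors. Where the number of genes tested changed, they were 138 of 8645 (1.60%) without a filter and 114 of 6140 (1.86%) with a mean of at least 50 counts. DESeq2's own test gave 41 (0.62%) and the sampled counts gave 202 of 6012 (3.36%). With each pair left out there were 97 to 194 (1.47 to 2.94%), the highest without the 10% pair. Genes with an interval within 1.5-fold, 6246 of 6565 at first, numbered 5726 to 6247 under the other alternatives with the block. The 5726 were of 6012 tested in the sampled counts, and the 6247 of 6565 with DESeq2 size factors. With each pair left out there were 6142 to 6196. The mean SD of the log2 ratio, 0.143, was 0.110 at a minimum mean count of 500, where fewer low counts enter, and 0.137 to 0.151 with each pair left out. The median log2 fold change was 5.35e-05 with TMM and −0.0026 with DESeq2 size factors. Of 688 values of 55 named genes under 13 settings, 37 had the other sign and 0 passed the threshold.

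Without the replicate block, which drops the pairing by mixture, 0 genes were called and 0 passed at the unadjusted threshold, 5488 had an interval within 1.5-fold, and the common biological coefficient of variation was 20.9% in place of 4.94%.

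With each pair left out, the difference in genes detected ran from −19.5 to 8.5, that in reads without a unique place from −0.926 to 0.184 percentage points, outside genes from −0.207 to 0.141 and ambiguous from 0.00238 to 0.0214. The zygotic patterning genes had few reads and wide intervals. The mixtures were prepared once each, from 1 amplification per mixture, so the values bear on tagmentation, enrichment and sequencing together and not on embryos.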
